A study of Mus musculus with 4 samples.

Results

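The heat shock proteins and their co-chaperones were examined in mouse gastrocnemius, the large calf muscle, as 79 of the 23282 gene rows measured. Membership went by gene symbol: every row of the Hspa, Hspb, Hspd, Hspe, Hsph, Hsp90, Dnaja, Dnajb and Dnajc series and Bag1 to Bag6, with Hspa5 left out. They comprised 13 genes of the Hsp70 and Hsp110 families, 3 of the Hsp90 family, the 2 subunits of the mitochondrial chaperonin, 8 small heat shock proteins, 2 partners that carry an Hspb name (Hspbp1 and Hspbap1), 4 Dnaja, 13 Dnajb, 28 Dnajc and 6 Bag genes. Of these, 74 had a read in at least 1 library and 73 reached a normalized read count of 4 in at least 1 library. The 5 without a read in any library were Dnajb8, Dnajb13, Dnajc5b, Dnajc5g and Dnajc22.

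The study crossed high-intensity treadmill exercise (E) with a tumor (T) raised by tail vein injection of CT26 cells, a murine colorectal cancer line. The 4 groups were the normal control (E-T-), the normal exercise (E+T-), the cancer control (E-T+) and the cancer exercise group (E+T+). All mice were males of the strain CDF1, and the labels give postnatal day 28, which the methods give as the age at purchase. Each group was represented by 1 library. The labels name 10 mice per group and the paper's results describe a representative mouse per group, so it was not settled if each library is a pool or comes from 1 animal. No spread between animals could be measured, no test across replicates exists, and the intervals given here cover counting error only.

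The measurement was 3′ mRNA sequencing, in which each transcript gives reads from its 3′ end only, so that long genes do not gain reads over short ones and the levels of different genes can be set side by side on this scale. The libraries held between 10647434 reads (cancer control) and 13226065 reads (normal exercise). Fast fibre markers (8 of 8 present) summed to 1340000 normalized reads in the normal control, 1130000 in the normal exercise, 899000 in the cancer control and 952000 in the cancer exercise library and were by far the most abundant of the fibre lists. Other cell type markers moved between the libraries. Slow fibre markers (8 of 8 present, none at 0) summed to 9510, 16200, 31600 and 17800 in that order, and neutrophil markers (9 of 10 present, Elane at 0 throughout) to 80, 163, 2640 and 1880. Red cell markers (7 of 7 present) summed to 249000, 51500, 235000 and 505000, tendon markers (5 of 5) to 9640, 4700, 1510 and 4090, and nerve markers (4 of 4) to 3900, 2160, 4380 and 1400. Fibroblast markers (8 of 8) summed to 69000, 43400, 39000 and 40000, fat markers (5 of 5) to 36700, 20600, 12400 and 26000, and macrophage markers (6 of 6) to 3210, 3160, 5480 and 4720. Such sums follow the most-read markers, and single markers can go otherwise. Dcn alone had 35360 of the fibroblast sum in the cancer control. With the tumor without exercise 3 macrophage markers had positive and 3 negative differences. The part of these shifts in the results was not tested, and in bulk tissue fewer cells of a type and less RNA per cell cannot be told apart.

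Chaperones bind proteins that are unfolded or still folding and keep them from clumping. Hsp70 proteins do this in cycles of ATP hydrolysis, J-domain proteins (the Dnaj genes) bring them their clients and speed the hydrolysis, and nucleotide exchange factors such as the Bag and Hsp110 proteins release the client again. Hsp90 proteins finish the folding of kinases and steroid receptors, and small heat shock proteins hold damaged proteins without using ATP. In skeletal muscle several small heat shock proteins and Bag3 sit at the Z-disc and along the myofibrils, where contraction strains the proteins. Many of these genes are switched on by heat shock factor 1 (Hsf1), which binds inverted repeats of the letters GAA known as heat shock elements.

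Promoter sequence is shown for some of the members described below, so that matches to the element, or the lack of one, can be seen. Only exact letters were sought, so a window without a match does not show that the element is absent. Windows of 250 bases before to 50 bases after each start site came from RefSeq on GRCm38.p6, and 64 of the 79 members had at least 1. The letters GAANNTTC or TTCNNGAA, 2 adjoining units that read the same on both strands, are in capitals. From Hspb7, Hspb1, Hspb6 and Hspa1a the 150 bases from 200 to 51 before the start are printed, and from Hspe1 and Hsph1 only the 30 bases around the longest match. Of the 2 windows each that RefSeq gives for Hspb6 and Hsph1, the sequence of Hspb6 is from the only window with a match and that of Hsph1 from the window of the farther downstream start.
Hspb7, chr4:141420579-141420728, plus strand: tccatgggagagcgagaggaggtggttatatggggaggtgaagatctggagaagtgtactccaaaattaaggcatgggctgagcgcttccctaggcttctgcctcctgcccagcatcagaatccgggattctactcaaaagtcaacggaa
Hspb1, chr5:135887719-135887868, plus strand: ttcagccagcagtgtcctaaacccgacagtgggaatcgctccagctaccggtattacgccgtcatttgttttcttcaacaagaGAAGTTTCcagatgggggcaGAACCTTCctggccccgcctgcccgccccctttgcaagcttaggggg
Hspb6, chr7:30553101-30553250, plus strand: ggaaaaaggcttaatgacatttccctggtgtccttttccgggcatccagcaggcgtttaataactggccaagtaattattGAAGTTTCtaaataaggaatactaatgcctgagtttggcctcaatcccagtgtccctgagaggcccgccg
Hspa1a, chr17:34972207-34972356, minus strand: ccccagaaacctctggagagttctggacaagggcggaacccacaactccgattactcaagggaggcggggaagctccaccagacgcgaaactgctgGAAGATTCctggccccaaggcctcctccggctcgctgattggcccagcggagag
Hspe1, chr1:55088053-55088082, plus strand: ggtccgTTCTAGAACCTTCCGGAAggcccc
Hsph1, chr5:149636277-149636306, minus strand: tgcagaTTCTGGAAAGTTCtcctcagtagg
Hspb1 held 2 matches, beginning 117 and 97 bases before its start, while Hspb6 held 1 at 120 bases and Hspa1a 1 at 104 bases before. The whole window of Hspb7 held none. The stretch of Hspe1 carries 3 overlapping matches beginning 89, 84 and 79 bases before its start, and it also lies in a window of Hspd1, which is read in the opposite direction from the same region. The run of Hsph1 lies just past its start, and the same gene held a further match 54 bases before it. At least 1 match of 2 units was found in 17 of the 64 members (26.6%), against 15.8% of all 17217 genes of the files with a window. A run of 3 units (GAANNTTCNNGAA or TTCNNGAANNTTC, which includes the matches of 2) was found in Dnajb6, Hspd1, Hspe1 and Hsph1, 6.25% of the members, against 0.691% of all genes. These are matches of letters and not measured binding.

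The members took 0.698% of all reads in the normal control, 0.865% in the normal exercise, 1.43% in the cancer control and 1.42% in the cancer exercise library. Both tumor libraries lay above both tumor-free libraries. In the normal control the most-read member was Hsp90ab1, the constitutive cytosolic Hsp90, with a normalized read count of 19420, followed by Hspb6 at 8134, Hspb8 at 6489 and Hspb1 at 4955. In the cancer exercise library Hspb6 stood first at 47180, ahead of Hsp90ab1 at 36510 and Hspb1 at 22070. Those 3 genes together made up 38.9% of the members' reads in the normal control, 44.1% in the normal exercise, 59.6% in the cancer control and 62.3% in the cancer exercise library. Without them, the summed normalized read count of the members was 51149, 51821, 65637 and 63979 in the same order. The small heat shock proteins took 0.175%, 0.264%, 0.572% and 0.684% of all reads, and the 28 Dnajc genes took 0.107%, 0.118%, 0.118% and 0.119%. The gain in reads was thus carried mostly by a few genes, while the summed Dnajc level differed little between the libraries.

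**Figure D1:**
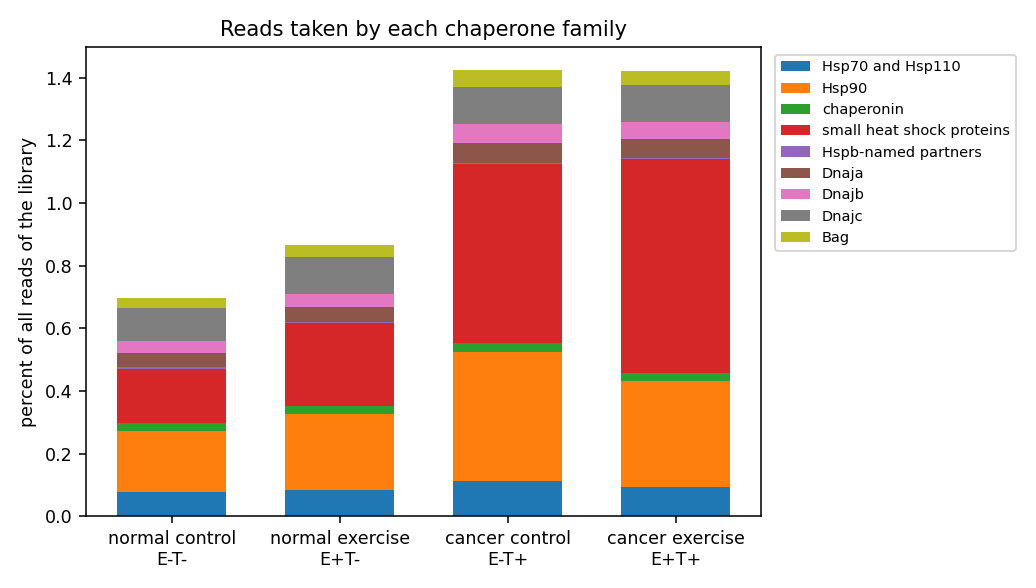
Share of all reads of each library, in percent, taken by each chaperone family; each bar is 1 library and the colors are the families. The stacked total is 0.698%, 0.865%, 1.43% and 1.42%, and the red block of the small heat shock proteins grows from 0.175% to 0.684%.

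A gene was called changed between 2 libraries when its normalized read count differed at least 2-fold, after adding 1 to each value, and reached 4 in at least 1 of them. Exercise in tumor-free mice (E+T- against E-T-) gave 1 member higher, Hspb7, and 0 lower, of 71 that met the minimum (4 and 0 where libraries were scaled by total count), while 9.44% of all genes were higher and 12.1% lower by the same rule. The tumor without exercise (E-T+ against E-T-) gave 16 higher and 8 lower of 71, which is 22.5% and 11.3%, where 20.9% of all genes were higher and 24.2% lower. Exercise in tumor-bearing mice (E+T+ against E-T+) gave 6 higher and 2 lower of 72, with 15.6% of all genes higher and 15.1% lower. The tumor with exercise (E+T+ against E+T-) gave 10 higher and 3 lower of 73 (8 and 8 by total count), with 13.9% of all genes higher and 16.3% lower. The share of members called higher with the tumor was thus near the background in both settings, and the share called lower was below it. Over the 4 comparisons together, 30 of 73 members (41.1%) and 9397 of 15485 genes (60.7%) were called at least once. The tumor without exercise and exercise in tumor-bearing mice both use the cancer control library, on opposite sides. A value particular to that library thus gives opposite signs in these comparisons.

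The members are read more deeply than most genes, and the same counts were made over genes that reached a normalized read count of 100 in at least 1 of the 2 libraries. At that depth exercise in tumor-free mice gave 1.61% of members against 6.28% of all genes, and exercise in tumor-bearing mice gave 3.39% against 15.0%. The tumor gave 30.6% against 35.1% without exercise and 11.3% against 17.1% with exercise. The median log2 fold change of the members was 0.09, 0.10, 0.01 and 0.12 in the order in which the comparisons were named, where all genes had medians of -0.01, -0.04, 0.005 and -0.03. The median size of a member's log2 fold change, whatever its direction, was 0.26, 0.75, 0.38 and 0.43, below the values of 0.42, 0.87, 0.58 and 0.57 over all genes. An exact binomial test on the reads of the 2 libraries, which compares those libraries and not the conditions, was passed after Benjamini-Hochberg adjustment by 1 of 1, 24 of 24, 7 of 8 and 13 of 13 of the called members. Over all genes it was passed by 2484 of 3121, 6042 of 6682, 3596 of 4437 and 3754 of 4378 called genes. Called genes were picked by a difference in the same reads, so passing is no separate support for the calls.

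**Figure D2:**
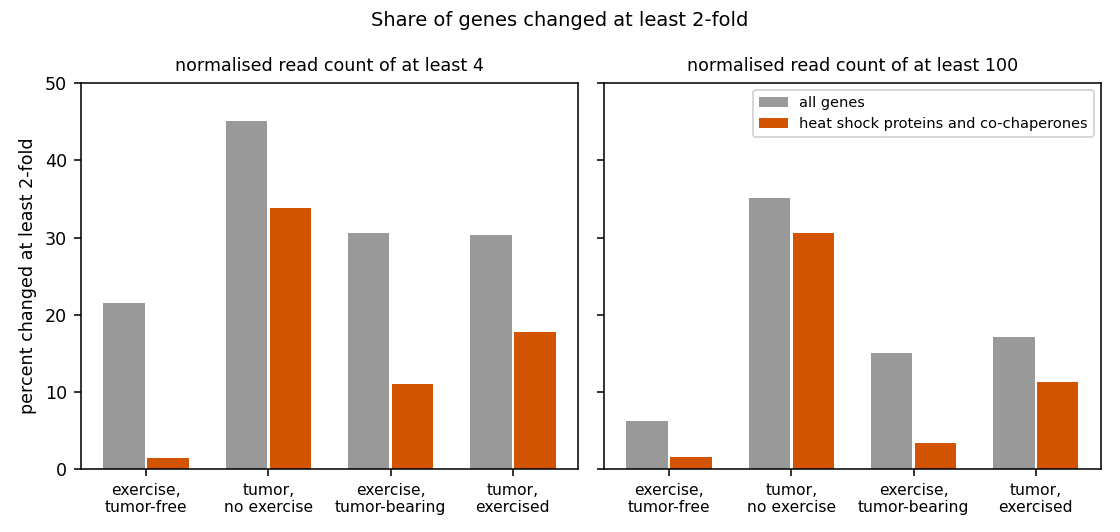
Percent of genes that differed at least 2-fold in either direction in each of the 4 comparisons, for all genes (grey) and for the members (orange), at a minimum normalized read count of 4 (left) and of 100 (right). Every orange bar is below the grey bar beside it, and the bars for the tumor without exercise are the tallest of each color, at 33.8% of the members and 45.1% of all genes on the left; all genes stand at 21.5%, 30.6% and 30.3% in the other 3 comparisons there.

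**Figure D3:**
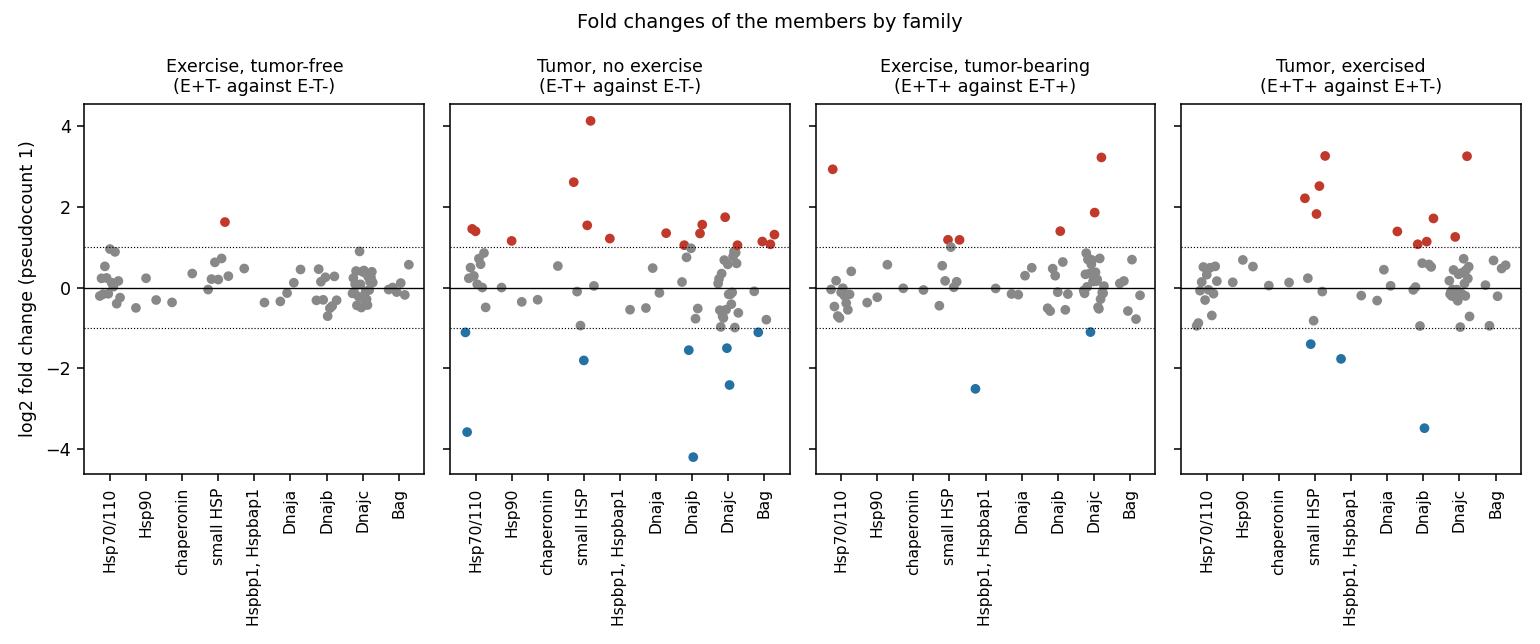
Log2 fold change (pseudocount of 1) of each member that met the minimum, by family, in each of the 4 comparisons; each point is 1 gene from 1 library against 1 library, red is at least 2-fold higher, blue at least 2-fold lower, and dotted lines mark the threshold. In the first panel only Hspb7 passes it, and the small heat shock proteins hold the highest points of the second.

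Among the 56 members with at least 100 normalized reads in each library, the 4 with the largest difference in any comparison were small heat shock proteins (Hspb7, Hspb1, Hspb6 and Hspb3). Members with fewer reads, such as Hspa12b and Dnajb3, also gave large differences and are described with their families. Hspb7, a muscle and heart protein that binds the cytoskeletal linker filamin C, lies on GRCm38 at chr4:141420779-141425311, plus strand. Its normalized read count was 246 in the normal control, 756 in the normal exercise, 4290 in the cancer control and 4308 in the cancer exercise library, from 231, 933, 4006 and 3977 reads. The normal control was lowest, the normal exercise intermediate, and the tumor libraries lay together far above both. On the log2 scale, the difference was 1.62 with exercise in tumor-free mice (95% counting interval 1.41 to 1.84), and no other member was called in that comparison under the deposited scaling. With the tumor it was 4.12 without exercise (3.93 to 4.32) and 2.51 with exercise (2.41 to 2.61). Exercise in tumor-bearing mice gave 0.01 (-0.06 to 0.07), an interval that includes 0.

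Hspb1 (Hsp27), a widely expressed small heat shock protein that also binds actin, lies at chr5:135887919-135889563, plus strand. Its normalized read count was 4955 in the normal control, 4783 in the normal exercise, 30150 in the cancer control and 22070 in the cancer exercise library. The tumor-free libraries were close to each other and the tumor libraries several-fold above them. The tumor difference was 2.61 on the log2 scale without exercise (2.56 to 2.65) and 2.21 with exercise (2.16 to 2.25). Exercise gave -0.05 in tumor-free mice (-0.11 to 0.01) and -0.45 in tumor-bearing mice (-0.48 to -0.42), both under 2-fold.

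Hspb6 (Hsp20), a small heat shock protein abundant in muscle, lies at chr7:30552178-30555443, plus strand. Its levels were 8134, 13380, 23610 and 47180 normalized reads in E-T-, E+T-, E-T+ and E+T+. Each exercised library was above its sedentary counterpart and each tumor library above its tumor-free counterpart. The tumor gave log2 differences of 1.54 (1.5 to 1.58) without and 1.82 (1.79 to 1.84) with exercise. Exercise gave 0.72 in tumor-free mice (0.68 to 0.76) and 0.999 in tumor-bearing mice (0.98 to 1.02), just short of the call. The annotation places Lin37 on the opposite strand within the last 500 bases of Hspb6, and how the counting treated strand is not stated. Lin37 had 4.43%, 5.06%, 4.98% and 4.78% as many reads as Hspb6 in the 4 libraries, so reads of the pair may not be fully separated.

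Hspb8 (Hsp22), the partner of Bag3 in clearing damaged muscle proteins, behaved otherwise. It had 6489, 7885, 6667 and 7357 normalized reads, and no comparison exceeded 0.28 on the log2 scale. Set against it within each library, Hspb7 had 0.0379 reads per read of Hspb8 in the normal control, 0.0959 in the normal exercise, 0.644 in the cancer control and 0.585 in the cancer exercise library. For Hspb1 the same ratio was 0.764, 0.607, 4.52 and 3.0. Ratios within a library do not depend on the scaling, and these pairs were chosen after their values were seen.

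Hspb2 and Hspb3, which assemble with each other in muscle, went the other way with the tumor. Hspb3 had 574, 658, 164 and 372 normalized reads, and Hspb2 had 439, 676, 228 and 256. Both genes were higher in each tumor-free library than in either tumor library. For Hspb3 the tumor difference was -1.80 without exercise (-2.08 to -1.55) and -0.82 with exercise (-1.01 to -0.64), and exercise in tumor-bearing mice gave 1.18 (0.91 to 1.47). For Hspb2 it was -0.94 without exercise (-1.19 to -0.70), short of the call, and -1.40 with exercise (-1.62 to -1.19). Cryab, the related alpha B-crystallin that overlaps the 3′ end of Hspb2 on the opposite strand, is outside the rule. It had 5680, 10060, 10720 and 16110 normalized reads and no call, so that Hspb2 went from 7.73% of the Cryab reads in the normal control to 1.59% in the cancer exercise library. As for Hspb6 and Lin37, reads of this pair may not be fully separated.

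The remaining 2 small heat shock genes were read little. Hspb11, a part of the intraflagellar transport machinery, had 128, 148, 119 and 173 normalized reads and no call. Hspb9, best known from testis, had 0, 0, 3 and 8 reads. Its 8 reads in the cancer exercise library were at least 3.56-fold higher than the 0 of the normal exercise library, at a floor of 3 reads, while the ratio to the 3 reads of the cancer control was 2.7 with an interval of 0.647 to 15.8.

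**Figure D4:**
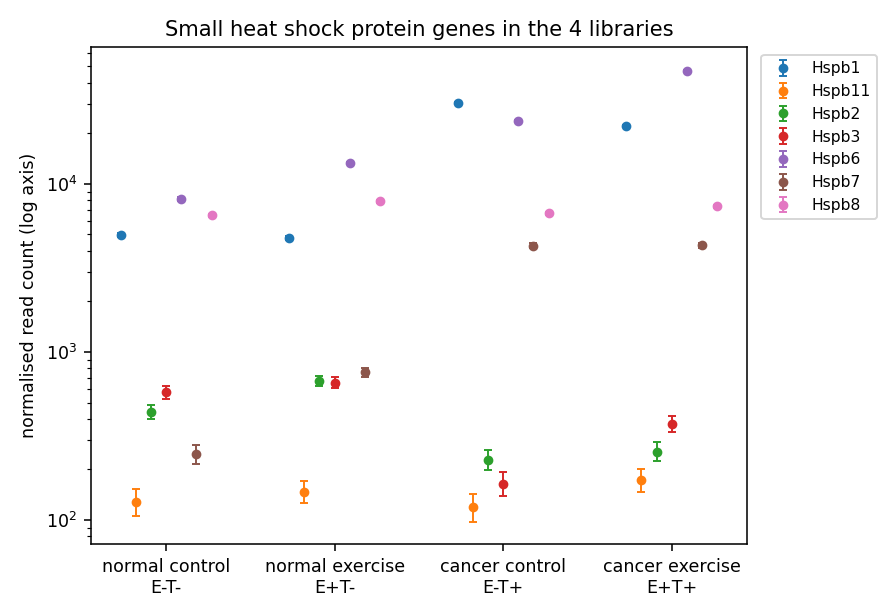
Normalized read count (log axis) of 7 small heat shock protein genes in the 4 libraries; each point is 1 library and bars are 95% counting intervals, Hspb9 being left out for its low counts. Hspb7 is at 246 and 756 without and at 4290 and 4308 with the tumor, Hspb8 stays between 6489 and 7885, and Hspb2 and Hspb3 are lowest in the tumor libraries.

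Slow fibre markers were higher in the same direction as Hspb6 and Hspb7 in 2 comparisons: 8 of 8 had positive differences with exercise in tumor-free mice (median log2 difference 0.96) and 7 of 8 were called higher with the tumor without exercise (median 1.98). Both comparisons are against the normal control library, so a value particular to that library gives the same sign in both. In tumor-bearing mice exercise gave 8 of 8 negative differences (median -0.96), where Hspb7 had 0.01 and Hspb6 0.999. With the tumor in exercised mice the median of the slow fibre markers was -0.003 (-0.159 by total count). There 5 of 8 were negative (6 of 8 by total count, 4 of 8 by a median-of-ratios scaling), where Hspb7 had 2.51 and Hspb6 1.82. In that last comparison 1 slow fibre marker, Myoz2, was called higher (1962 against 6225 normalized reads, 1.67 on the log2 scale), the direction of Hspb6 and Hspb7.

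The Hsp90 family was dominated by a single gene. Hsp90ab1 (chr17:45567775-45573271, minus strand) had 19420, 22760, 43150 and 36510 normalized reads in E-T-, E+T-, E-T+ and E+T+, the order kept below. It was called higher with the tumor without exercise, at 1.15 on the log2 scale (1.13 to 1.18), and stood at 0.68 with exercise (0.66 to 0.71). Hsp90aa1, its stress-inducible counterpart, had 2202, 1552, 2200 and 1697 and no call. The tumor-free and tumor-bearing sedentary libraries were level for Hsp90aa1 (0.00, interval -0.09 to 0.09), and both exercised libraries were below their sedentary counterparts, with log2 differences of -0.50 (-0.59 to -0.41) and -0.37 (-0.47 to -0.28). Reads of Hsp90ab1 per read of Hsp90aa1 were 8.82, 14.7, 19.6 and 21.5 in the 4 libraries. Hsp90b1 (Grp94), the form in the endoplasmic reticulum, had 1903, 1536, 1488 and 2200 and no call.

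Among the Hsp70 proteins, the constitutive cytosolic Hspa8 (Hsc70) had 2604, 1973, 2604 and 1776 normalized reads. The sedentary libraries were equal and both exercised libraries lower, with log2 differences of -0.40 (-0.48 to -0.32) and -0.55 (-0.64 to -0.46) that did not reach 2-fold. Hspa9 (mortalin), the Hsp70 of the mitochondrial matrix, had 3462, 3871, 6255 and 5563, a tumor difference of 0.85 without and 0.52 with exercise. It too was not called, and Hspa9 reads per Hspa8 read were 1.33, 1.96, 2.40 and 3.13.

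The stress-inducible pair Hspa1a (chr17:34969190-34972156, minus strand) and Hspa1b was read thinly. Hspa1a had 58, 90, 159 and 96 reads, and Hspa1b 51, 60, 62 and 36. Hspa1a was highest in the cancer control, and the tumor difference without exercise was 1.45 (1.02 to 1.92), while Hspa1b gave 0.29 (-0.27 to 0.86). The genes are near copies of each other in their coding parts. No exact 75-base stretch of the last 500 bases of their transcripts was shared between them or with any other gene measured here. Near matches were not checked, and how multiply mapped reads were counted was not stated. Hspa1l, which lies beside them and is best known from testis, had 106, 207, 281 and 258 normalized reads. It was lowest in the normal control, with differences of 0.95 with exercise in tumor-free mice (0.62 to 1.31), just under the call (called by total count), and 1.39 with the tumor without exercise (1.06 to 1.75).

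Hspa12b, a distant Hsp70 relative known from endothelium, had 71, 109, 5 and 44 reads. The cancer control was far below the other libraries, at -3.58 on the log2 scale against the normal control (-5.48 to -2.53), and the cancer exercise library was 2.92 above the cancer control (1.82 to 4.85). Endothelial markers (6 of 6 present, none at 0) summed to 3190, 4250, 3570 and 3730 normalized reads in the 4 libraries, with none of the 6 called in either of those comparisons. With the tumor without exercise 4 of them had negative and 2 positive differences (median -0.285). With exercise in tumor-bearing mice 4 had positive and 2 negative differences (median 0.17). The part of endothelium in the Hspa12b values was not tested. Hspa12a, its closest relative, had 99, 112, 45 and 43 reads, called lower with the tumor without exercise at -1.11 (-1.67 to -0.61). With the tumor in exercised mice Hspa12b had -0.88 and Hspa12a -0.95, and both were called lower there by total count. The other members of the family were not called. Hspa2 had 170.1, 185, 180 and 178 normalized reads and no difference above 0.12. Of the exchange factors of the Hsp110 type, Hspa4 had 1359, 1378, 2231 and 1934 and Hsph1 had 608, 511, 432 and 571 (a normalized read count in each case). Hspa4l (24 to 59 reads), Hspa13 and Hspa14 also stayed under 2-fold, except that Hspa4l was called higher with exercise in tumor-free mice by total count.

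The chaperonin subunits Hspd1 (Hsp60) and Hspe1 (Hsp10), which form the folding chamber of the mitochondrial matrix, had no call. Hspd1 had 1430, 1108, 1160 and 1145 normalized reads and Hspe1 had 1464, 1861, 2116 and 2029. Hspd1 was highest and Hspe1 lowest in the normal control. Although the genes share the promoter region shown above, where 2 runs of 3 units overlap, Hspe1 reads per Hspd1 read were 1.02 (0.95 to 1.10) in the normal control and 1.68, 1.82 and 1.77 in the other libraries, whose intervals did not reach that of the normal control.

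The 4 Dnaja genes, classic J-domain partners of Hsp70, included 1 call in 2 comparisons. Dnaja4 had 419, 571, 1066 and 1495 normalized reads. Both tumor libraries were above both tumor-free ones, by 1.34 (1.18 to 1.52) without and 1.39 (1.26 to 1.52) with exercise. Wdr61 overlaps its 3′ end on the opposite strand and had 502, 354, 318 and 418, an order unlike that of Dnaja4. Dnaja1 had 1180, 930, 830 and 743 and Dnaja2 had 3462, 3147, 4830 and 4269, without a call, and Dnaja3 of the mitochondrion had no difference above 0.29.

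Of the 13 Dnajb genes, 10 met the minimum with the tumor without exercise. Of these 10, 3 were called higher and 2 lower, near the 45.1% of all genes called in either direction there. Dnajb6, whose mutations cause a limb-girdle muscular dystrophy and which keeps proteins from aggregating, had 1439, 1742, 3635 and 2479 normalized reads. The cancer control was highest, at 1.34 above the normal control (1.25 to 1.43), and the cancer exercise library was 0.51 above the normal exercise library. Dnajb9 (ERdj4), a regulator of the Ire1 stress sensor in the endoplasmic reticulum, had 196, 157, 577 and 516. It was called higher with the tumor in both settings, at 1.56 (1.32 to 1.81) and 1.71 (1.47 to 1.96). Dnajb11 (ERdj3), from the same compartment, had 161, 221, 333 and 222 and was called only without exercise, at 1.05 (0.77 to 1.34).

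Dnajb4, a close relative of Dnajb1 that is abundant in muscle and heart, had 635, 445, 372 and 978 normalized reads. The cancer control was lowest and the cancer exercise library highest. Exercise in tumor-bearing mice gave 1.39 (1.22 to 1.58) and the tumor in exercised mice 1.13 (0.98 to 1.29, under 2-fold by total count), while exercise in tumor-free mice gave -0.51 and the tumor in sedentary mice -0.77. Its relative Dnajb5 had the same order of libraries, at 930, 676, 648 and 1004, and no call. Dnajb1 (Hsp40), the most widely used marker of the heat shock response among the J-domain genes, had 244, 195, 268 and 187 and no call. Each exercised library was below its sedentary counterpart for Dnajb1, with differences of -0.32 (-0.59 to -0.05) and -0.51 (-0.80 to -0.23).

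The lower calls among the Dnajb genes rested on fewer reads. Dnajb14, of the endoplasmic reticulum membrane, had 167, 177, 56 and 68 reads and a tumor difference of -1.55 without exercise (-2.03 to -1.12), and of -0.95 with exercise, called lower by total count. Dnajb3 had 17, 13, 0 and 0 reads, at least 5.63-fold lower with the tumor without exercise and at least 3.24-fold lower with it in exercised mice. Dnajb12, a relative of Dnajb14, had 35, 51, 59 and 81 reads and was called higher with the tumor in exercised mice, at 1.07 (0.56 to 1.62), a call not made by total count. Dnajb2 came close to the call at 0.97 with the tumor without exercise and was called by total count. Dnajb7 had 1 read in all.

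The 28 Dnajc genes, which carry the J domain in otherwise unlike proteins, had few calls: 24 or 25 of them met the minimum in a comparison, and 0, 4, 3 and 2 were called. Of all genes, 21.5%, 45.1%, 30.6% and 30.3% were called in either direction. Among all genes that reached 100 normalized reads in at least 1 of the 2 libraries, it was 6.28%, 35.1%, 15.0% and 17.1%. Dnajc19, a part of the motor that pulls proteins into mitochondria, had 1459, 1035, 515 and 825 normalized reads. It was lowest in the cancer control, at -1.50 against the normal control (-1.66 to -1.35). Fxr1 overlaps its 3′ end on the opposite strand and had 2964, 2863, 2966 and 2462. Dnajc24, which works in the synthesis of diphthamide on a translation factor, had 74, 130, 13 and 49 reads. Its cancer control was again lowest, at -2.41 (-3.47 to -1.64), and exercise in tumor-bearing mice gave 1.85 (1.03 to 2.94). With the tumor in exercised mice Dnajc24 had -0.98, called lower by total count. Dnajc17 and Dnajc8, both linked to splicing, were higher with the tumor without exercise, at 1.74 (1.02 to 2.64) from 18 against 62 reads and at 1.05 (0.94 to 1.16) from 966 against 1982 reads. Dnajc17 was lower with exercise in tumor-bearing mice, at -1.10 (-1.83 to -0.47), with 28 reads in the cancer exercise library against the same 62 of the cancer control. Dnajc16 was higher with the tumor in exercised mice, at 1.25 (0.67 to 1.90), from 37 against 67 reads. Dnajc6 (auxilin), which uncoats clathrin vesicles, had 0, 0, 0 and 8 reads, at least 2.7-fold higher with exercise in tumor-bearing mice and at least 3.56-fold higher with the tumor in exercised mice. Dnajc3, an endoplasmic reticulum member that restrains the kinase Perk, had 855, 633, 1454 and 1037 and no call. The other 16 Dnajc genes with reads, apart from the even Dnajc1 and Dnajc10 of the endoplasmic reticulum, were not called either, and the nearest were Dnajc4 (-0.99) and Dnajc12 (-0.97), both with the tumor without exercise.

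The Bag proteins release clients from Hsp70. Bag3, which links Hsp70 to Hspb8 in muscle, had 848, 784, 1865 and 1247 normalized reads. The cancer control was highest, at 1.14 above the normal control (1.02 to 1.26), the cancer exercise library stood 0.67 above the normal exercise library (0.55 to 0.79), and exercise in tumor-bearing mice gave -0.58 (-0.69 to -0.47). Bag3 reads per Hspb8 read were 0.131, 0.0994, 0.280 and 0.169. Bag6, which guards newly made membrane proteins, had 792, 1172, 1964 and 1716, with a tumor difference of 1.31 without exercise (1.19 to 1.43). Bag5 had 369, 325, 775 and 451, and was called higher in the same comparison at 1.07 (0.88 to 1.26). Bag2, an inhibitor of the ubiquitin ligase Chip, was lower there at -1.11 (-1.53 to -0.72), from 164, 215, 75 and 83 reads. Bag1 was the steadiest member of all with at least 100 normalized reads in each library, at 1623, 1566, 1520 and 1631, and Bag4 was not called. No Bag gene was called in the other 3 comparisons under the deposited scaling, but by total count Bag2, at -0.95 with the tumor in exercised mice, was lower there too.

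Of the partners with an Hspb name, Hspbp1, an exchange factor of Hsp70, had 406, 314, 277 and 273 normalized reads and no call. Hspbap1, which binds Hspb1, was called in 3 of the 4 comparisons on low counts. It had 19, 35, 45 and 7 reads. The cancer exercise library was lowest and the cancer control highest. The differences were 1.21 with the tumor without exercise (0.45 to 2.11), -2.51 with exercise in tumor-bearing mice (-4.06 to -1.51) and -1.77 with the tumor in exercised mice (-3.32 to -0.71).

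Read by role across the families, 13 members are the classic targets of heat shock factor 1: Hspa1a, Hspa1b, Hspa8, Hsph1, Hsp90aa1, Hsp90ab1, Hspb1, Hspd1, Hspe1, Dnaja1, Dnajb1, Dnajb4 and Bag3. Under the deposited scaling most had negative differences with exercise, while directions were mixed with the tumor. Exercise in tumor-free mice gave 0 calls and 10 of 13 negative differences (7 of 13 by total count), with a median of -0.25, where all genes had -0.01. Exercise in tumor-bearing mice gave 1 call, Dnajb4, and 11 of 13 negative differences, with a median of -0.37, where all genes had 0.005. Of all genes, 21.5% were called in either direction with exercise in tumor-free mice and 30.6% in tumor-bearing mice. The tumor without exercise gave 4 higher (Hspa1a, Hsp90ab1, Hspb1 and Bag3) and 0 lower. There 7 differences were positive and 5 negative (9 and 4 by total count), with a median of 0.14. The tumor with exercise gave 2 higher (Hspb1 and Dnajb4) and 0 lower. Here 9 differences were positive and 4 negative (6 and 7 by total count), with a median of 0.13 (-0.03 by total count). Of all genes, 20.9% were higher and 24.2% lower without exercise, and 13.9% and 16.3% with it. Of the 7 mitochondrial members, 1 was called in any comparison, Dnajc19, where 60.7% of all genes were called at least once. Of the 7 members of the endoplasmic reticulum, Dnajb9 and Dnajb11 were called higher with the tumor without exercise and Dnajb9 with exercise. The shares of all genes called higher there were 20.9% and 13.9%.

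Matches to the heat shock element were set beside the calls. Among the members higher with the tumor without exercise, 6 of the 15 with a promoter window held at least 2 units: Bag3, Dnaja4, Dnajb6, Hspa1a, Hspb1 and Hspb6. Hsp90ab1, also higher there, had no window and could not be counted. The classic targets Hsp90aa1 and Hspa8 had none either. Among the members under 2-fold it was 9 of 35, and among the lower members 1 of 8, Hspb3. Apart from Dnajb6, the genes with a run of 3 units (Hspd1, Hspe1 and Hsph1) were under 2-fold in each comparison. Hspb7, with the largest tumor difference, held no match in its window.

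The 2 tumor comparisons share no library, and their calls can be set against each other. Hspb7, Hspb1, Hspb6, Dnajb9 and Dnaja4 were higher in both, which is 5 of the 16 members higher without exercise and 5 of the 10 higher with it, while over all genes it was 953 of 3090 and 953 of 2014. Dnajb3 was lower in both, 1 of 8 and 1 of 3, where all genes gave 1146 of 3592 and 1146 of 2364. By total count 6 members were lower in both, Dnajb3 with Bag2, Dnajb14, Dnajc24, Hspa12a and Hspa12b, which is 6 of 8 in either comparison, where all genes gave 1296 of 3423 and 1296 of 2798. The same 5 members were higher in both by either scaling. Hspbap1 was higher in the first and lower in the other. Several members called without exercise were closer to 0 with it: Hspa1l went from 1.39 to 0.32, Dnajb11 from 1.05 to 0.01, Dnajc17 from 1.74 to -0.26 and Hspa12b from -3.58 to -0.88. The exercise comparisons share no library with each other either, and no member was called in the same direction in both, where Hspb7 was the only member called in the first. Over all genes, 253 were higher in both and 379 lower in both.

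**Figure D5:**
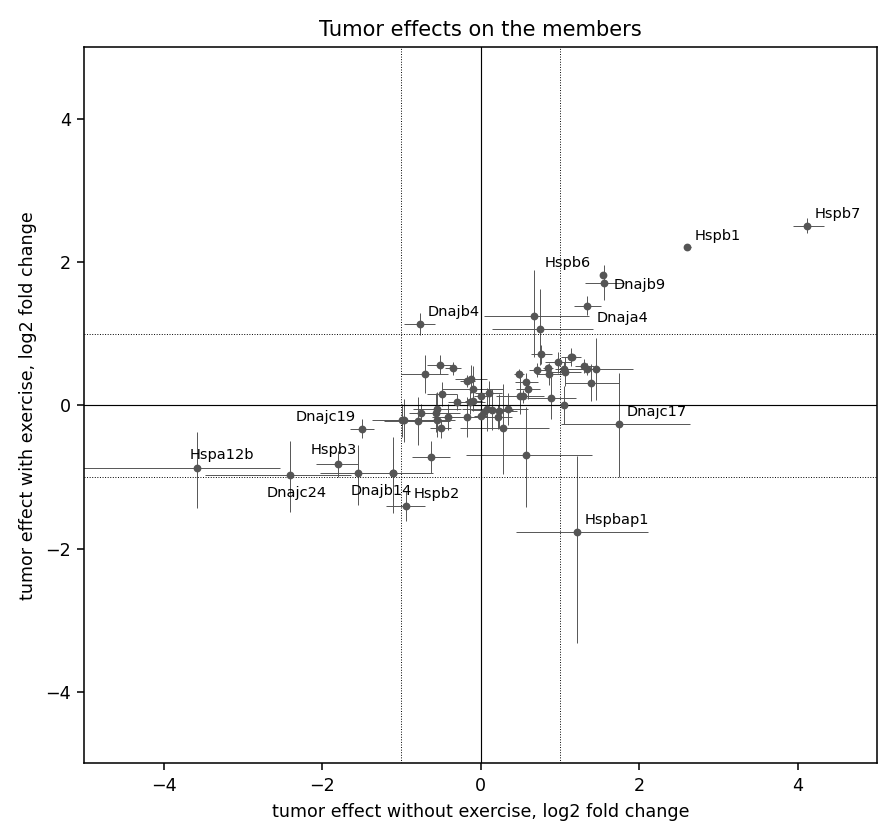
Log2 fold change with the tumor in sedentary mice (horizontal axis, E-T+ against E-T-) and in exercised mice (vertical axis, E+T+ against E+T-) for members with over 3 reads in each library; bars are 95% counting intervals and dotted lines mark 2-fold. Hspb7 and Hspb1 lie far out at the upper right, Hspa12b and Dnajc24 at the left, and Hspbap1 is the gene at the lower right.

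The crossed design also asks whether exercise acted alike with and without a tumor. Among members with a read in each library, the exercise difference in tumor-bearing mice minus that in tumor-free mice was lowest at -2.98 for Hspbap1 (7 to 45 reads), followed by -1.99 for Dnajc17 and -1.61 for Hspb7, whose exercise difference was 1.62 without and 0.01 with a tumor. The highest were Hspa12b at 2.70 (5 to 109 reads), Dnajb4 at 1.91 and Dnajc24 at 1.43. With 1 library per group these differences could not be tested. Among members with at least 100 normalized reads in each library, the smallest differences in any comparison were those of Bag1 (at most 0.10 in size), Hspa2 (0.12), Dnajc1 (0.17), Dnajc10 (0.23) and Hspb8 (0.28).

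Genes of the chaperone system outside the membership rule were counted by the same rule. Of 51 such genes, all of which met the minimum, exercise in tumor-free mice gave 2 higher and 1 lower, the tumor without exercise 6 and 4, exercise in tumor-bearing mice 3 and 1, and the tumor with exercise 4 and 0. Of all genes, 9.44% were higher and 12.1% lower, then 20.9% and 24.2%, 15.6% and 15.1%, and 13.9% and 16.3%, in the same order. Each share of the 51 genes was below that of all genes at this minimum, but most of the 51 are read more deeply than most genes. Of all genes that reached 100 normalized reads in at least 1 of the 2 libraries, 6.28%, 35.1%, 15.0% and 17.1% were called in either direction. That background is closer to the shares of the 51. Hsf1, the heat shock factor itself, had 322, 701, 337 and 441 normalized reads and was called higher with exercise in tumor-free mice at 1.12, the comparison in which 10 of 13 of its classic targets had negative differences (7 of 13 by total count). Hsf2 had 464, 496, 791 and 904 and no call. Fkbp5, a co-chaperone of Hsp90 and a target of the glucocorticoid receptor, had 562, 289, 3501 and 3417, with tumor differences of 2.64 and 3.56. Smyd1 and Itgb1bp2 (melusin), muscle partners of Hsp90, were lower with the tumor without exercise, at -1.91 and -3.05, and higher with exercise in tumor-bearing mice, at 1.12 and 1.17. Both comparisons use the cancer control library, whose values alone can give opposite signs, here and for the chaperonin CCT below. Itgb1bp2 was also lower with exercise in tumor-free mice, at -1.08. All 8 subunits of the cytosolic chaperonin CCT had positive differences with the tumor without exercise, Tcp1 (1.26) and Cct2 (1.37) being called, and 7 of 8 had negative differences with exercise in tumor-bearing mice (8 of 8 by total count). Serpinh1 (Hsp47), the collagen chaperone, had 770, 487, 193 and 269 and was lower with the tumor without exercise at -1.99, where 5 of 8 fibroblast markers and 5 of 5 tendon markers were also called lower. Unc45b, the myosin chaperone, and Stip1, which links Hsp70 to Hsp90, had no call and no difference above 0.33 in size.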

How the data were processed

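Right gastrocnemius RNA of the 4 groups was sequenced by the authors with the Lexogen QuantSeq 3′ kit (single-end reads of 75 bases). Per the labels and methods, alignment by the authors used Bowtie2 (mm10), gene counts came from bedtools coverage, and a quantile method in edgeR normalized them. The handling of strand, of duplicates and of multiply mapped reads was not stated. Each deposited file holds 1 library on a log2 scale, as normalized reads to which 1 was added, so a count test was not the main result. The files hold 23282 rows in all and 23238 distinct symbols.

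Normalized read counts were taken as 2 to the power of the deposited value, minus 1. Whole reads were rebuilt by a model of the quantile adjustment with 1 factor per library and 1 dispersion (0.339): 100% of the values matched a whole number of reads within 6e-04 on the log2 scale, and 91.3% to 93.6% of the values per library were tied to a single count. The rebuilding and the exact test were checked on simulated data. Those data were made by the same model with counting error only, so the check could test neither the form of the model nor spread between animals. Total reads were 11269788 in the normal control, 13226065 in the normal exercise, 10647434 in the cancer control and 11026642 in the cancer exercise library, and the floor taken for a gene without reads was 3 reads.

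Samples were grouped by title. With 1 library per group, a call was a difference of at least 2-fold after a pseudocount of 1, where at least 1 of the 2 libraries reached 4 normalized reads. Counting intervals (95%, Clopper-Pearson) were set on how the reads of a gene split between 2 libraries and expressed as log2 ratios. A two-sided exact binomial test on reads was adjusted by the Benjamini-Hochberg method over all genes with reads. Alternatives were 3 other scalings, a pseudocount of 4, other minimums and folds of 1.5 and 4. The scalings were by total count, trimmed mean of M values and median of ratios. The trimmed mean factors lay within 0.00656% of the deposited ones. The text names every member that reached 16 normalized reads in any library and was called in at least 1 comparison, 29 core members, the 5 members with the most reads, Hsf1, Hsf2, Cryab, Stip1, Unc45b and called genes of the pathway lists. The members, groups, pathway and marker lists were chosen with earlier results of these data known. Promoter windows were RefSeq's (GRCm38.p6) and gene positions those of GENCODE M21 (GRCm38, the assembly of mm10). R 4.3.3, Python 3.11.15, scipy 1.17.1, pandas 2.3.3 and numpy 2.4.6 were used.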

Additional observations from a re-analysis of the deposited data

Results flagged for a closer look

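Hspbap1, which binds Hspb1, was at least 2-fold higher with the tumor in sedentary mice (1.21 on the log2 scale) and at least 2-fold lower with the tumor in exercised mice (-1.77), so that the effect of the tumor in exercised minus sedentary mice was -2.98. It was singled out because the 2 tumor comparisons, which share no library, pass the threshold in opposite directions, as 259 and 248 of all genes also do. It had 19, 35, 45 and 7 reads in the libraries E-T-, E+T-, E-T+ and E+T+. The difference was not tested.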

How the results depend on the processing

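With 1 library per group no spread between animals could be measured, and no replicate could be left out. No paired analysis was possible because each group holds 1 library. Of 80 counts of called members under the alternatives, 64 stayed within 1.5 times the reported count. Scaling by total count shifted the median of all genes by 0.16 with exercise in tumor-free mice and by -0.16 with the tumor in exercised mice. It gave 4 members higher in the first and 8 lower in the other, and medians of the members of 0.25 and -0.031. A fold of 4 gave 0 higher with exercise in tumor-free mice, 2 higher and 3 lower with the tumor without exercise, 2 and 1 with exercise in tumor-bearing mice, and 4 and 1 with the tumor with exercise. A fold of 1.5 gave 6 and 1, 25 and 16, and 14 and 5 in the first 3 comparisons, and 11 lower with the tumor with exercise. The remaining 26 of 28 medians moved by less than 0.1. Of 720 values of single genes, 657 stayed within their counting interval and 14 took the opposite sign, none of them over 0.16 in size as reported. By total count alone, 59 of these values left the interval and 121 stayed. The scaling by trimmed mean of M values nearly repeats the deposited one, so its 180 values could only stay. Counting error limits members under 100 reads.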

Other observations

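Other genes of the chaperone system that met the naming rule gave the following values, in normalized reads in the order E-T-, E+T-, E-T+ and E+T+. Grpel1, the exchange factor of mitochondrial Hsp70, had 1204, 1173, 2527 and 1631 and was called higher with the tumor without exercise, while its paralog Grpel2 had 116, 234, 86.8 and 124 and was called higher with exercise in tumor-free mice. Clpx, a mitochondrial unfoldase, had 402, 244, 624 and 549 and was called higher with the tumor in exercised mice, as was Sugt1, a co-chaperone of Hsp90, at 1085, 884, 1261 and 2084. Unc45a, the widely expressed relative of Unc45b, had 59.6, 51.8, 136 and 61.8, called higher with the tumor without exercise and lower with exercise in tumor-bearing mice. Pfdn4, a subunit of prefoldin, had 362, 438, 108 and 230 and was called in the opposite directions in those comparisons, at -1.73 and 1.08. Those comparisons share the cancer control library. Hsf4, a relative of Hsf1, had 17, 26, 48 and 25 reads and was called higher with the tumor without exercise.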
